A study of Mus musculus with 5 samples.

Results

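Replacement histone variants are histones that are placed in chromatin outside of DNA replication or at particular places in it. Here 9 mouse genes that encode them were followed across 5 RNA-seq libraries of 4-cell embryos made by nuclear transfer, in which a donor nucleus is put into an oocyte stripped of its own. The genes were taken from a list by symbol: H3f3a and H3f3b for H3.3, H1foo and H1f0 for linker histones, H2afz and H2afv for H2A.Z, H2afx for H2A.X, H2afy for macroH2A, and Cenpa for the centromeric H3. All 9 were found among the 22026 symbols of the files. Every library came from B6D2F1 embryos, and there was 1 library per group. The groups were embryos with no treatment, embryos treated with luciferase (a control), embryos with a knockdown of H3.3, knockdown embryos given H3.3 mRNA, and knockdown embryos given H3.2 mRNA. The last library is so named in its title, but its treatment tag names H3.3 mRNA, so each statement on it rests on the title. No source used here gives the donor cell, the way the knockdown was made or the number of embryos in a library. The source labels read SCNT in 2 libraries, luciferase and H3.2 mRNA, and NT in the other 3.

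Levels are in FPKM, reads per kilobase of transcript scaled to the library, so they can be set side by side between genes. Differences are on the scale of log2(FPKM + 1), and genes are called higher or lower from 4-fold on, which is 2 on that scale. With 1 library per group no difference has a replicate check and no p-value is given. The distance between the untreated and the luciferase library is given as the distance between 2 control libraries. Sequencing depth is unknown. The libraries held 10443 to 12300 genes above 0. Of 8 early embryo markers, 6 to 8 were above 0 in each library, with Pou5f1 from 157 to 1249.7 FPKM and Dppa3 from 4818 to 19535 FPKM, whereas Sox2 was above 0 (1.71 FPKM) in untreated embryos alone. Of 8 fibroblast markers, 2 were above 0 in the luciferase library (Col1a2 and Pdgfra, 6.71 FPKM in sum), and all were at 0 in the other 4. Of 8 cumulus cell markers, 2 or 3 were above 0 in each library, and their sum of 147 to 1076 FPKM was nearly all Amhr2. Has2, Amh and Fshr were at 0 in all 5.

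In fertilised eggs and after nuclear transfer, incoming chromatin is rebuilt with proteins stored by the oocyte. H3.3 is the form of H3 deposited by chaperones such as HIRA and DAXX without DNA synthesis, whereas H3.1 and H3.2 enter chromatin during replication. H1foo encodes the linker histone of oocytes, H2A.Z marks promoters and enhancers, phosphorylated H2A.X marks DNA breaks, macroH2A is linked to silent chromatin, and CENP-A defines the centromere.

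The coding sequences of both H3.3 genes are shown because they bear on how reads of 51 bases can be told apart. They come from the GENCODE M21 transcripts of GRCm38. The last 300 bases, from base 112 counted from the start codon to the stop codon, are printed 5′ to 3′ with capitals where the genes differ.
H3f3a: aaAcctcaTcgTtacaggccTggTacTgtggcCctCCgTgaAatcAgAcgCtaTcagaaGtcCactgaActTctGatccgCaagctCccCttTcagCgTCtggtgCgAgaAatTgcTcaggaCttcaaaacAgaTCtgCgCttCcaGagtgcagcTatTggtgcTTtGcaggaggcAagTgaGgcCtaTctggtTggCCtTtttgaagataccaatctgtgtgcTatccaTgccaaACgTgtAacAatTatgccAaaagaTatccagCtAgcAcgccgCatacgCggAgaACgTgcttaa
H3f3b: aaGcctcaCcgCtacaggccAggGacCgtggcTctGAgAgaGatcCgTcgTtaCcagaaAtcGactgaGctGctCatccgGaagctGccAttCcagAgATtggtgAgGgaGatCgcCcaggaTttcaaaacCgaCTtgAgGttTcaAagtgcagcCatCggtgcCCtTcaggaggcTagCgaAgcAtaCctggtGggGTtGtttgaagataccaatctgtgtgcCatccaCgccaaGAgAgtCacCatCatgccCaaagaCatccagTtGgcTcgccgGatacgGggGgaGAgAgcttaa
Each full coding sequence is 411 bases long. They differ at 95 bases (76.9% identity), of which 81 lie at the third base of a codon, and no codon of the 137 encodes another amino acid, so both genes make the same protein. The longest run they share is 23 bases, tttgaagataccaatctgtgtgc, from base 313 to base 335 counted from the start codon. No window of 51 bases is common to the 2 full transcripts.

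Reads of H3f3a and H3f3b are thus distinct from each other, but not from other annotated genes. Of the 361 windows of 51 bases in the coding part, 333 for H3f3a (92.2%) and 164 for H3f3b (45.4%) also occur in a transcript of another gene. Over whole transcripts the shares were 30.2% and 8.16%. H2afz shared 337 of its 337 coding windows and 69.3% of all its windows. H2afx shared 33.2% of its coding windows, with clustered H2A genes among the partners. H2afy shared 16.2%, with 1 other gene, where matches on either strand were counted. H1f0 shared none of its coding windows and 5.64% of all windows. H1foo, H2afv and Cenpa shared none, so no exact copy in the annotation bears on their values. This describes the annotation of another build than the mm9 of the files, and exact matches only.

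**Figure D1:**
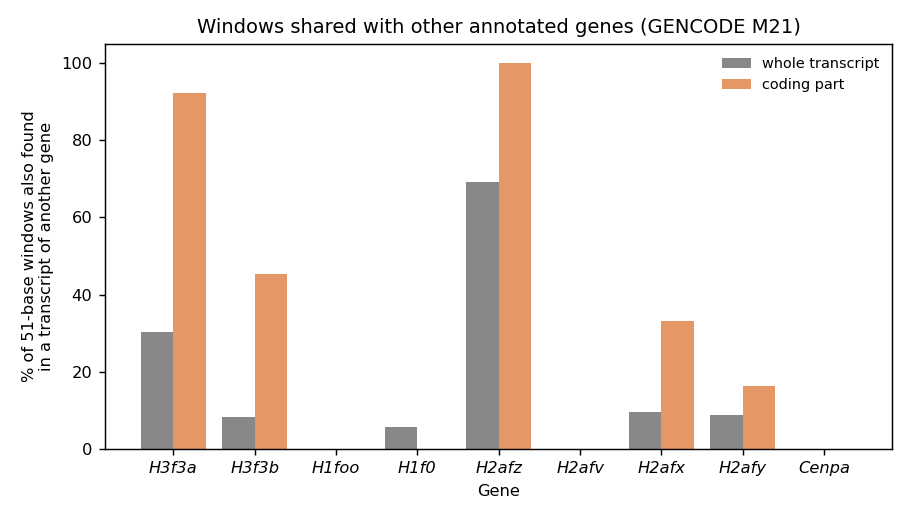
Share of 51-base windows (y axis, percent) of each gene's longest-coding transcript that also occur, on either strand, in a transcript of another gene in GENCODE M21, for the whole transcript (grey) and its coding part (orange). H2afz and H3f3a have the highest shares in the coding part (337 of 337 and 333 of 361 windows), and H1foo, H2afv and Cenpa have none.

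The H3.3 genes were far lower in all 3 knockdown libraries than in both controls. H3f3a was at 783 FPKM in untreated embryos and 3503 FPKM in the luciferase library, at 128 FPKM in the knockdown, and at 95.5 and 129 FPKM with H3.3 and H3.2 mRNA. H3f3b was at 4484 and 2230.5 FPKM in the controls, at 535 FPKM in the knockdown, and at 371 and 292 FPKM with H3.3 and H3.2 mRNA. For each gene the controls lay above all 3 knockdown libraries, with no overlap. How many of all genes have this order was not counted, so how unusual it is was not tested. In bulk libraries, fewer cells of a type and less RNA per cell cannot be told apart.

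The controls differed in which gene carried the transcript. H3f3a made up 14.9% of the H3.3 sum in untreated embryos and 61.1% with luciferase, and 19.4%, 20.5% and 30.6% in the knockdown, H3.3 mRNA and H3.2 mRNA libraries. So the luciferase library alone had more H3f3a than H3f3b. The sums of the controls, 5266 and 5734 FPKM, lay only 0.12 apart on the log2 scale, whereas H3f3a was 2.16 higher and H3f3b 1.01 lower in the luciferase library. The knockdown was therefore 27.3-fold below the luciferase library for H3f3a and 4.17-fold for H3f3b, against 6.09-fold and 8.38-fold below the untreated library. For H3f3b the difference from the luciferase library, -2.06, was -1.98 with median-of-ratios rescaling, just short of 4-fold.

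**Figure D2:**
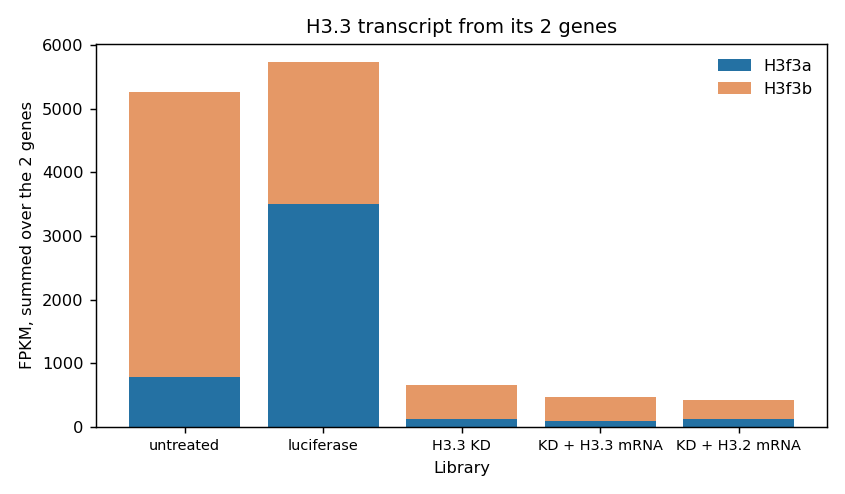
FPKM (y axis, bars from 0) of H3f3a (blue) and H3f3b (orange), stacked, in each of the 5 libraries. The controls reach 5266 and 5734 FPKM with different parts from each gene, and the 3 knockdown libraries sum to 664, 467 and 420.1 FPKM.

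One processed pseudogene of H3f3a is listed in the files under its own symbol, Gm12657, and shares 207 of the 51-base windows with H3f3a. It was singled out after its values were seen. Gm12657 was at 94.9 FPKM in the untreated, 700.2 FPKM in the luciferase, 13.4 FPKM in the knockdown, 13.5 FPKM in the H3.3 mRNA and 27.1 FPKM in the H3.2 mRNA library. That is 10.4% to 21.1% of the H3f3a level in the same library, with the highest shares in the luciferase (19.99%) and the H3.2 mRNA (21.1%) libraries. Whether these are reads of H3f3a was not tested. With Gm12657 added to the H3.3 sum, H3f3a with its pseudogene made up 16.4% of the sum in the untreated and 65.3% in the luciferase library. The knockdown sum was then 12.6% of that in untreated embryos and 10.5% of that with luciferase.

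The values listed for the H3.3 genes were not higher in the library given H3.3 mRNA than in the knockdown alone. Whether reads of the mRNA given were counted under H3f3a or H3f3b was not tested, so these values are no measure of it. The H3.3 sum was 467 FPKM in the H3.3 mRNA library against 664 FPKM in the knockdown, a difference of -0.51, and 420.1 FPKM with H3.2 mRNA, a difference of -0.66. The library labelled H3.3 mRNA and the one labelled H3.2 mRNA lay 0.15 apart. The 0.12 between the controls is no yardstick for this, as H3f3a and H3f3b differed in opposite directions there. Set against H2A.Z in the same library, a ratio that linear rescaling leaves as it is, the H3.3 sum was 1.25 and 1.21 times the sum of H2afz and H2afv in the untreated and luciferase libraries. This ratio was 0.113 in the knockdown, 0.309 after H3.3 mRNA and 0.172 after H3.2 mRNA. The higher ratio with H3.3 mRNA came with a lower H2A.Z sum of 1509 FPKM, against 5866 FPKM in the knockdown.

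The replication-coupled H3 genes, which encode H3.1 or H3.2, were low or at 0 in all 5 libraries. Genes for H3.1 and for H3.2 were not told apart in this list, so no value here is a measure of the H3.2 mRNA given. Of 12 such genes, 11 were in the files and 3 had a mean of 1 FPKM or more. Their sum was 33.2 FPKM in the untreated, 4.47 FPKM in the luciferase and 15.01 FPKM in the H3.2 mRNA library, and all 11 were listed at 0 in the knockdown and H3.3 mRNA libraries. Hist1h3g was at 12.1 FPKM with H3.2 mRNA, its highest value, against 3.06 FPKM in untreated embryos and 0.3 FPKM in the luciferase library. Hist1h3a was at 16.6 FPKM in the untreated and 2.76 FPKM with H3.2 mRNA, and Hist1h3f at 5.87 and 0.05 FPKM. Transcripts of these genes normally lack a poly(A) tail, and no source used here says how RNA was selected for the libraries.

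Counts of members that were 4-fold apart are given beside the share of all genes that were, which depends on the level of the genes counted. In the knockdown, H3f3a, H3f3b and H1foo were lower and H2afx higher than in untreated embryos, 4 of 9 members against 32.5% of all 13144 genes whose mean over the libraries reached 1 FPKM. Against the luciferase library H3f3a, H3f3b and H2afy were lower and H1foo higher, again 4 of 9 against 28.6%. Between the controls the count was 3 of 9 (H3f3a and H2afy higher and H1foo lower in the luciferase library) against 36.9%. Where H2afy is counted in these comparisons it is set against a listed 0, so its call is no fold. Only H3f3a and H3f3b, the targets, lay 4-fold below each control in the knockdown, where the background was 6.35%, and no member was higher than in each, where it was 4.98%. Many genes past that filter are low. Over the 4825 genes whose mean reached 100 FPKM, a level that all members but H2afy reach and that was set after the values were seen, fewer were apart. At that level the counts were 4 of 8 members against 14.8% for the knockdown and untreated embryos, 3 of 8 against 12.5% for the knockdown and luciferase, and 2 of 8 against 16% between the controls. Both H3.3 genes were below each control there, with a background of 2.47%.

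Apart from the targets, the knockdown lay above the range of both controls for 4 members (H1f0, H2afz, H2afv and H2afx), and within it for H1foo, H2afy and Cenpa. The share of all genes above that range was not counted, so how unusual this is was not tested. None of these members was 4-fold above each control. The 7 members other than H3.3 summed to 7168 FPKM in the untreated, 6163 FPKM in the luciferase and 7921 FPKM in the knockdown library. They summed to 2927 FPKM after H3.3 mRNA and 3379 FPKM after H3.2 mRNA. H2afz was the most abundant of the 9 in each library but the untreated one, where H3f3b came first, and made up 66.0% of the sum of all 9 in the knockdown. H2afy was last in each library but the luciferase one, where H1f0 was last.

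**Figure D3:**
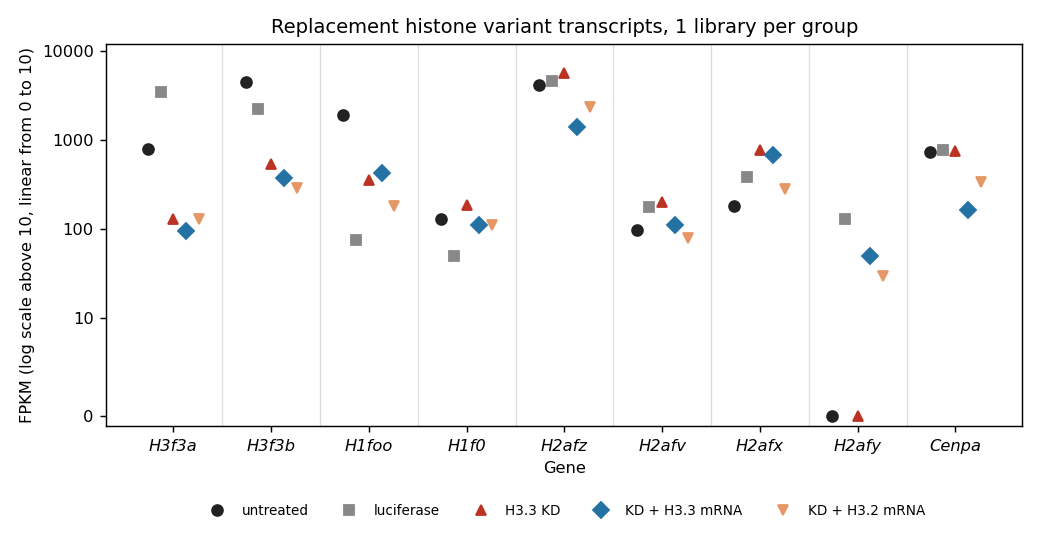
FPKM (y axis, logarithmic above 10 and linear from 0 to 10) of the 9 genes in the 5 libraries, 1 point per library. The controls lie above the 3 knockdown libraries for H3f3a and H3f3b, and the untreated, luciferase and knockdown points lie together for Cenpa at 723 to 767 FPKM.

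The linker histone of oocytes was the member that differed most between the controls among those above 0 in both. H1foo was at 1925 FPKM in untreated embryos and 74.8 FPKM in the luciferase library, a 25.7-fold distance. It was at 351 FPKM in the knockdown, 426 FPKM after H3.3 mRNA and 179.6 FPKM after H3.2 mRNA. All 3 knockdown libraries thus lay between the controls, and the knockdown differed by -2.45 from the untreated and by 2.21 from the luciferase library on the log2 scale. With H3.3 mRNA the difference from the untreated library, -2.17, was -1.83 after upper-quartile rescaling and -1.93 after quantile normalization, short of 4-fold.

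Most oocyte markers were, like H1foo, far lower in the luciferase library than in untreated embryos. The summed level of 9 of them (Zp1, Zp2, Zp3, Gdf9, Bmp15, Zar1, Oosp1, Mos and Oas1d) was 3586 FPKM in untreated embryos, 199 FPKM with luciferase, and 1302, 856 and 701 FPKM in the knockdown, H3.3 mRNA and H3.2 mRNA libraries. Of the 9, 8 were at least 4-fold lower in the luciferase library than in untreated embryos, against 13.4% of all genes. Zar1, a maternal-effect gene, was at 639, 5.76, 173, 64.4 and 18.4 FPKM in that order of libraries, and Oosp1, an oocyte-secreted protein gene, at 349.95, 0, 118, 112 and 68.2 FPKM. Oosp1 and Mos were listed at 0 in the luciferase library, and Mos also with H3.2 mRNA. The order of the libraries was not the same in all of them. Zp2, a zona pellucida gene, was lowest in the untreated library, with 8.82 FPKM against 34.6 to 81.9 FPKM. Zp1, another such gene, was highest in the knockdown, at 99.6, 14.7, 133, 61.8 and 70.4 FPKM in the same order of libraries. Bmp15, an oocyte growth factor gene, was highest with H3.2 mRNA, at 68.2, 2.13, 13.9, 24.9 and 112 FPKM. The marker sum was higher in the knockdown than with H3.3 mRNA, whereas H1foo was lower there. Their part in the H1foo values was not tested.

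H1f0, the replacement linker histone of somatic cells, had a narrower spread. It was at 130.23 FPKM in the untreated, 49.2 FPKM in the luciferase, 185 FPKM in the knockdown, and 111 and 112 FPKM in the H3.3 and H3.2 mRNA libraries. The luciferase library was the low one, and the knockdown was 1.89 higher than it on the log2 scale and 0.50 higher than the untreated library. The level of H1foo over that of H1f0 was 14.8 in untreated embryos, 1.52 with luciferase, 1.90 in the knockdown, and 3.85 and 1.61 with H3.3 and H3.2 mRNA.

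**Figure D4:**
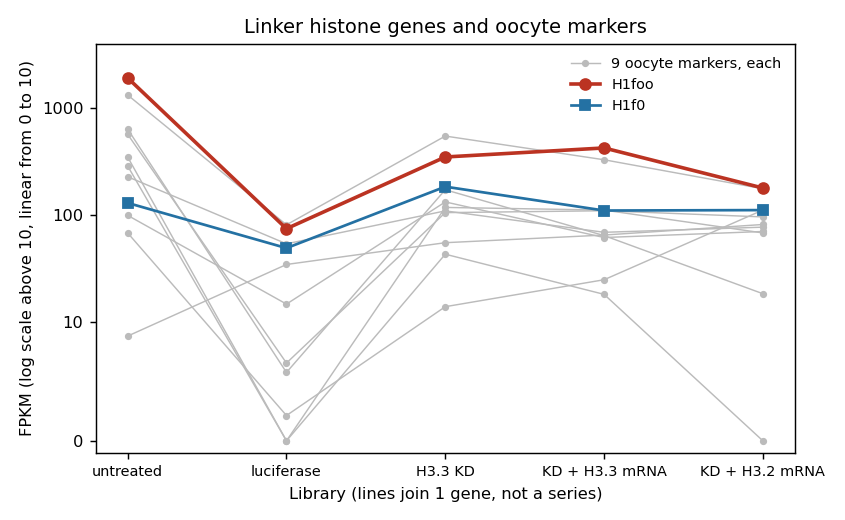
FPKM (y axis, logarithmic above 10 and linear from 0 to 10) of H1foo (red), H1f0 (blue) and each of 9 oocyte marker genes (grey) in the 5 libraries on the x axis. H1foo drops from 1925 FPKM in the untreated to 74.8 FPKM in the luciferase library, and 8 of the 9 markers are also at least 4-fold lower there.

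Of the other linker histones and nucleoplasmins, 5 of 10 had a mean of at least 1 FPKM. In the knockdown 1 of these 5 was higher and none lower than in untreated embryos (median -0.34, against 0 over all genes, of which 16.8% were higher and 15.6% lower). Against the luciferase library 2 were higher and none lower (1.61, against -0.12, with 9.74% and 18.9%). The replication-coupled linker genes were low: Hist1h1c was at 0, 21.4, 24.7, 0 and 3.82 FPKM, and Hist1h1a at 24.1, 0, 10.8, 45.9 and 7.57 FPKM, in the order untreated, luciferase, knockdown, H3.3 mRNA and H3.2 mRNA. Npm1, the abundant nucleolar nucleophosmin, was at 17305 and 19230.3 FPKM in the controls and 9041, 9801 and 6774 FPKM in those 3 knockdown libraries. For Npm1 the controls thus lay above all 3, and the knockdown was 1.01 below the mean of the controls. The share of all genes with that order was not counted, and Npm1 was named for its distance from the controls in the knockdown. Npm3 was at 24.0, 5.4, 26.7, 31.6 and 24.3 FPKM, low in the luciferase library alone. H1fx and 4 more of the 10 were under the filter.

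The main H2A.Z gene was close between the controls and lower in both mRNA libraries. H2afz was at 4109.8 FPKM in the untreated, 4580.3 FPKM in the luciferase and 5668 FPKM in the knockdown library, and at 1398 FPKM after H3.3 mRNA and 2367 FPKM after H3.2 mRNA. The controls were 0.16 apart on the log2 scale, the knockdown was 0.46 and 0.31 above them, and both mRNA libraries were below the control range. With H3.3 mRNA it was 4.06-fold below the knockdown (-2.02), and with H3.2 mRNA 2.39-fold lower (-1.26). Quantile normalization brought these to -1.62 and -0.42. Abundant genes as a whole were lower in these libraries, with medians over the 658 genes averaging 1000 FPKM or more of -0.38 for the H3.3 mRNA library and -0.75 for the H3.2 mRNA library against the knockdown. The values of one file, that with H3.2 mRNA, summed to 2467002 FPKM against 3044067 to 3578517 FPKM in the others. The part of either in the H2afz values was not tested. H2afz also has exact copies elsewhere: Tmcc1, which shares 619 windows with it, was at 3.77 to 48.7 FPKM.

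H2afv, the second H2A.Z gene, was below H2afz in each library and had the narrower range. It was at 96.9 FPKM in the untreated, 178 FPKM in the luciferase, 198 FPKM in the knockdown, 111 FPKM in the H3.3 mRNA and 78.8 FPKM in the H3.2 mRNA library. No pair of libraries was 4-fold apart, and the full range was 2.51-fold. H2afz exceeded H2afv 42.4-fold in the untreated, 25.8-fold in the luciferase, 28.6-fold in the knockdown, 12.6-fold in the H3.3 mRNA and 30.1-fold in the H3.2 mRNA library. The ratio was thus lowest with H3.3 mRNA.

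For genes of the machines that load and remove H2A.Z, the background depends on the level of the genes compared. Of 13 measured, 1 was higher and 3 were lower than in untreated embryos (median -0.38, against 0 over all genes, of which 16.8% were higher and 15.6% lower). Against the luciferase library 1 was higher and 2 were lower (-0.31, against -0.12, with 9.74% and 18.9%). Most of the 13 average 100 FPKM or more, though Ep400, among those counted lower, does not. Of all genes at that level, 14.8% were 4-fold apart in either direction from untreated embryos and 12.5% from the luciferase library. That is less often than over all genes past the filter. The list was not counted at that level, so these shares are no matched background for it. Ep400, the ATPase of the TIP60-p400 complex, was at 133 and 81.5 FPKM in the controls, 15.98 FPKM in the knockdown, and 77.0 and 159.84 FPKM with H3.3 and H3.2 mRNA. Ino80, a remodeller ATPase, was at 161 and 144 FPKM, then 25.6, 141 and 205 FPKM. For both genes the knockdown was the low library and both mRNA libraries lay at or near control values or above. The genes named here were chosen for being far from the control mean in the knockdown, so an extreme value there was part of the choice. Znhit1, a subunit of the SRCAP complex, was the reverse, with 217 and 229 FPKM in the controls, 1109 FPKM in the knockdown, and 337 and 250.1 FPKM after. Actr6, another SRCAP subunit, was at 459 and 141 FPKM in the controls against 114 FPKM in the knockdown.

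H2afx, whose product is phosphorylated at DNA breaks, was highest in the knockdown. It was at 182 FPKM in the untreated, 385 FPKM in the luciferase, 770.05 FPKM in the knockdown, 669.5 FPKM in the H3.3 mRNA and 277 FPKM in the H3.2 mRNA library. The knockdown and the H3.3 mRNA library lay above both controls, and the H3.2 mRNA library between them. The knockdown was 2.07 above the untreated and 0.998 above the luciferase library, with 1.07 between the controls. With H3.3 mRNA the difference from the untreated library, 1.87, was 2.22 after upper-quartile rescaling and 2.23 after quantile normalization, past 4-fold. The clustered H2A genes and H2afj, which share windows with H2afx, were far lower, with Hist2h2ac at 18.0 FPKM at most and H2afj at 27.5 to 104 FPKM.

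Genes that act around H2A.X at breaks had median differences below 0 in the knockdown, where H2afx was highest. Of 11, 1 was higher and 2 were lower in the knockdown than in untreated embryos (median -0.67, against 0 over all genes, with 16.8% higher and 15.6% lower). None was higher and 1 lower than in the luciferase library (-0.49, against -0.12, with 9.74% and 18.9%). Brca1, a repair and checkpoint gene, was at 31.6 and 24.1 FPKM in the controls, 2.51 FPKM in the knockdown, and 36.3 and 79.4 FPKM with H3.3 and H3.2 mRNA. Rnf168, a ubiquitin ligase for H2A, was at 52.9 and 30.6 FPKM, then 7.87, 50.7 and 24.6 FPKM, and Rad50, of the MRN complex, at 45.9 and 16.2 FPKM, then 10.9, 19.0 and 64.1 FPKM. The knockdown was the lowest library for these 3 genes, but they were named for being far from the control mean in the knockdown. Prkdc, the DNA-dependent protein kinase, was at 0.49 and 16.3 FPKM, then 37.1, 17.8 and 31.8 FPKM, lowest in the untreated library. With H3.2 mRNA 3 of the 11 were higher and none lower than in the knockdown (median 1.11, against 0.15 over all genes, of which 19.5% were higher), and with H3.3 mRNA also 3 and none (0.53, against 0, with 16.4% higher).

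H2afy, the main macroH2A gene, was listed at 0 in 2 libraries. It was listed at 0 in the untreated and the knockdown library and was at 129 FPKM in the luciferase, 49.97 FPKM in the H3.3 mRNA and 29.3 FPKM in the H3.2 mRNA library. The H3.2 mRNA library was 4.39-fold below the luciferase library (-2.10, and -1.82 with a pseudocount of 10), and no fold is given against a listed 0. The untreated and knockdown libraries are also those with the fewest genes above 0, 10443 and 10496, against 11280 to 12300 in the others, and the part of this was not tested. H2afy2, the second macroH2A gene, was at 3.15 FPKM in the luciferase and 3.12 FPKM in the H3.3 mRNA library and was listed at 0 in the other 3.

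Of the further histone variants, testis forms included, 3 of the 11 in the files had a mean of at least 1 FPKM. H2afj was the only one with sizeable values, at 44.8, 69.95, 104, 27.5 and 77.5 FPKM in the untreated, luciferase, knockdown, H3.3 mRNA and H3.2 mRNA libraries. Hist3h2ba was above 0 in untreated embryos only, at 8.23 FPKM. In the knockdown 1 of the 3 was lower than in untreated embryos (15.6% of all genes were) and 1 lower than in the luciferase library (18.9%), with a median of 0 in each.

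Cenpa was the steadiest member over the controls and the knockdown, and was lower in both mRNA libraries. It was at 723 FPKM in the untreated, 767 FPKM in the luciferase and 749 FPKM in the knockdown library, but at 163 FPKM after H3.3 mRNA and 336 FPKM after H3.2 mRNA. The first 3 values lay within 1.06-fold of each other, and both mRNA libraries were below all of them. With H3.3 mRNA Cenpa was 4.45-fold below the untreated, 4.72-fold below the luciferase and 4.61-fold below the knockdown library. With H3.2 mRNA it was 2.15-fold, 2.28-fold and 2.23-fold below. The difference from the untreated library with H3.3 mRNA, -2.15, was -1.80 after upper-quartile rescaling and -1.84 after quantile normalization, and that from the knockdown, -2.20, was -1.996 after quantile normalization, so the 4-fold calls ended while the direction held. Cenpa was the sole member besides the H3.3 genes that was 4-fold lower than each control in any knockdown library. In the H3.3 mRNA library these were 3 of 9 members, with a background of 3.77%, and in the H3.2 mRNA library 2 of 9, with 2.82%. Among genes averaging 100 FPKM or more these backgrounds were 1.64% and 1.41%.

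The ratio of Cenpa to H2afz moved little. It was 0.176 in the untreated, 0.167 in the luciferase, 0.132 in the knockdown, 0.116 in the H3.3 mRNA and 0.142 in the H3.2 mRNA library. Both genes were thus lower together in the mRNA libraries.

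Genes for CENP-A loading and the inner kinetochore had medians near 0 between the mRNA libraries and the knockdown, where Cenpa was lower. Of 15, 1 was higher and 1 lower in the H3.3 mRNA library than in the knockdown library (median -0.18, against 0 over all genes, of which 16.4% were higher and 10.1% lower), and the same counts held with H3.2 mRNA (0.00, against 0.15, with 19.5% and 9.11%). Hjurp, the chaperone of CENP-A, was at 194 and 169 FPKM in the controls, 74.4 FPKM in the knockdown, and 152 and 335 FPKM with H3.3 and H3.2 mRNA, lowest in the knockdown. Oip5, a subunit of the Mis18 complex, was at 5.75 and 47.1 FPKM, then 149, 27.0 and 58.5 FPKM, highest there. Both were named for being far from the control mean in the knockdown. Cenpl and Cenpk, of the inner kinetochore, stood far apart in the controls, at 2.74 and 92.0 FPKM and at 147 and 6.76 FPKM. In the knockdown 2 of the 15 were higher and none lower than in untreated embryos (-0.21, with 16.8% and 15.6% of all genes), and 1 higher and none lower than in the luciferase library (0.37, with 9.74% and 18.9%).

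The chaperones of H3.3 were detected in every library, the 3 with low H3f3a and H3f3b levels included. All 11 genes of the list were above 0 in each. In the knockdown none was higher and 1 lower than in untreated embryos (median -0.45, against 0 over all genes, with 16.8% higher and 15.6% lower). In it 1 was higher and 1 lower than in the luciferase library (-0.19, against -0.12, with 9.74% and 18.9%). With H3.3 mRNA 2 were higher and none lower than in the knockdown (0.95, against 0 over all genes, with 16.4% higher), and with H3.2 mRNA 1 and none (0.54, against 0.15, with 19.5% higher). Daxx was at 306 and 81.0 FPKM in the controls, 66.5 FPKM in the knockdown, and 199 and 131 FPKM with H3.3 and H3.2 mRNA. Its partner Atrx, a remodeller of repeats and telomeres, was at 2.44 and 41.9 FPKM, then 2.76, 43.8 and 26.3 FPKM, low in the untreated and knockdown libraries. The H3-H4 chaperone genes Asf1a and Asf1b were at 60.5 and 14.4 FPKM, then 67.3, 29.2 and 65.8 FPKM, and at 386 and 275 FPKM, then 686, 381 and 479.55 FPKM.

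With H3.2 mRNA against the luciferase library, both labelled SCNT, H3f3a, H3f3b and H2afy were lower, 3 of 9 members against 20.3% of all genes, and none was higher. The H3.3 sum was 13.6-fold lower in that pair (-3.77). With H3.3 mRNA against the untreated library, both labelled NT, 5 of 9 were 4-fold apart against 34.4%: H3f3a, H3f3b, H1foo and Cenpa lower and H2afy higher. The H3.3 sum was 11.3-fold lower there (-3.49). Against the knockdown, 3 of 9 were apart with H3.3 mRNA (H2afz and Cenpa lower, H2afy higher) against 26.4%, and 1 of 9 with H3.2 mRNA (H2afy higher) against 28.6%. The H2afy calls against the untreated library and the knockdown rest on a listed 0 and are no fold. With H3.2 mRNA against the knockdown, H2afy is the whole count. Among the 8 members and the other genes averaging 100 FPKM or more, the counts were 2 of 8 against 4.89% (H3.2 mRNA and luciferase), 4 of 8 against 16% (H3.3 mRNA and untreated), 2 of 8 against 10.7% (H3.3 mRNA and knockdown) and 0 of 8 against 11.5% (H3.2 mRNA and knockdown). Both comparisons with the knockdown share that library, as those with a control share the control. Between the H3.3 and the H3.2 mRNA library no member was 4-fold apart, where 21% of all genes and 4.44% of those averaging 100 FPKM or more were, and the widest was H2afx at 2.42-fold higher with H3.3 mRNA.

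**Figure D5:**
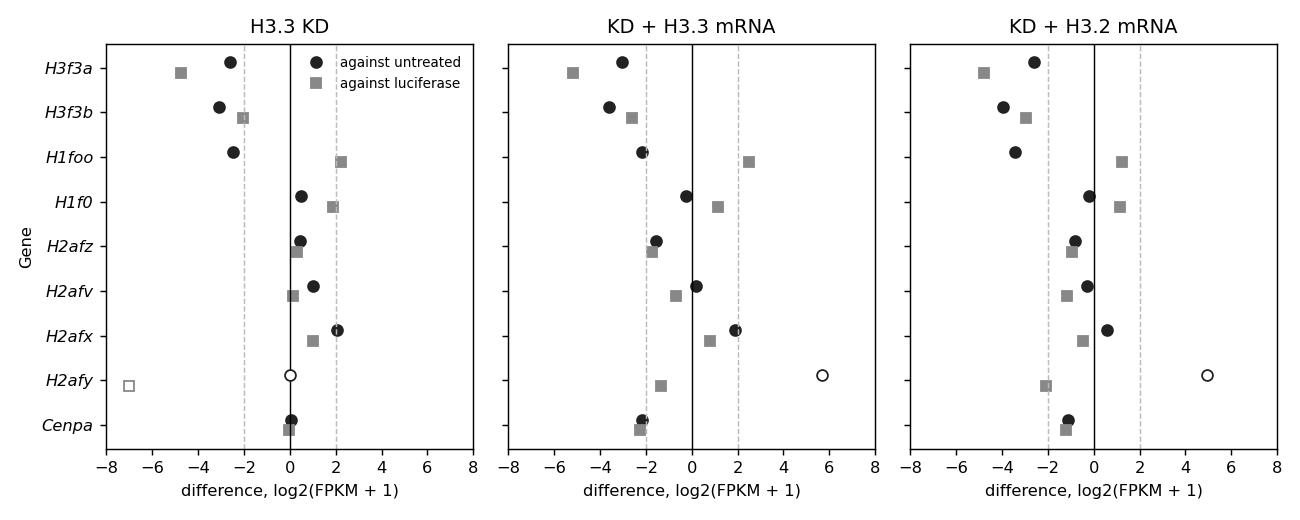
Difference of each gene from the untreated (black circles) and the luciferase library (grey squares) on the log2(FPKM + 1) scale (x axis), for the knockdown, H3.3 mRNA and H3.2 mRNA libraries. Dashed lines mark 4-fold, and open symbols mark differences with a listed 0, which are no fold. H3f3a and H3f3b lie to the left of the lower dashed line in all 3 panels against both controls, and Cenpa does so with H3.3 mRNA.

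Genes with the most similar profile were looked for among 5953 genes with means of 50 FPKM and up, by the distance between log2 profiles over the 5 libraries after each was centred on its mean. Among those nearest to the H3.3 sum were Anxa2, an annexin gene (1.07), at 2508 and 2840.1 FPKM in the controls and 578, 292 and 474 FPKM in the knockdown, H3.3 mRNA and H3.2 mRNA libraries, and Fabp5, a fatty acid binding protein gene (1.17), at 402 and 271 FPKM, then 19.3, 22.5 and 34.4 FPKM. Nearest to H1foo were Cant1 (0.38), Fuca1 (0.65) and Ccdc69 (0.76). Cant1, a nucleotidase gene, was at 322 FPKM in the untreated, 16.5 FPKM in the luciferase, 80.0 FPKM in the knockdown, 88.2 FPKM in the H3.3 mRNA and 38.0 FPKM in the H3.2 mRNA library. These genes were chosen for this likeness, over 5 libraries only.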

How the data were processed

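The authors aligned single reads of 51 bases with TopHat and estimated FPKM with Cufflinks on mm9, per the submitters' processing notes (without versions). The deposited files hold 1 FPKM value per gene symbol. Values written as an exact 0 can be failed estimates, so such genes are called listed at 0. FPKM below 20 in both control libraries (1302 genes) were searched for steps worth 1 read, and the fullest bin of 0.1 log2 units held 2.69% of them, so no depth was recovered and no counting interval is given.

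Differences were taken on log2(FPKM + 1), a scale that shrinks the change of low genes, over the 13144 genes whose mean reached 1 FPKM. Calls were made at 4-fold in Python 3.11.15 with numpy 2.4.6 and pandas 2.3.3, checked on simulated data. Members, 7 pathway lists and 4 marker lists were chosen with earlier results of these data known. Named genes are all members, the 3 nearest profiles to the H3.3 sum and to H1foo (no clone names; the nearest to the H3.3 sum is not reported here), and up to 4 genes per list that were farthest from the control mean in the knockdown; further ones serve as markers or share sequence. Srcap, H2afb2, H2afb3, H3f3c and Hist2h3c2 matched no symbol. Alternatives were other pseudocounts, filters, folds and 3 rescalings. Zeros are written 0.00 in both files labelled SCNT and 0 in the 3 labelled NT.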

Additional observations from a re-analysis of the deposited data

How the results depend on the processing

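Alternatives were run for 7 of the 10 pairs of libraries, and not for H3.3 mRNA against luciferase, H3.2 mRNA against untreated embryos or the 2 mRNA libraries against each other. In those 7, no member's 4-fold difference changed sign under the 3 rescalings. The other alternatives (pseudocounts of 0.1 and 10, no filter or 50 FPKM, 2-fold and 8-fold calls) cannot change a sign. Of 560 values for single members over all alternatives, 511 kept their side of the threshold and moved by less than 1.5-fold. These 511 include 63 with no filter and 56 with a filter at 50 FPKM, where a member's difference is the same by construction. They also include 48 with a 2-fold and 51 with an 8-fold call, where the difference cannot move and only the call can change. Of the rest, 21 lost the call, 17 gained one and 11 moved further (9 of H2afy with another pseudocount and 2 of H2afz with quantile normalization). The 3 rescalings moved the median of all genes by up to 0.34 on the log2 scale. They turned the sign of 6 differences, all at or below 0.23 in size.

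The count of members 4-fold apart with H3.2 mRNA against the knockdown, 1, was 0 with a pseudocount of 10 or a filter at 50 FPKM, since H2afy alone carried it. With H3.3 mRNA against the knockdown, 3 became 1 with quantile normalization. Shares of all genes were counted at 4-fold only, so the counts at other folds have no background beside them. At 2-fold, the counts were 6 between the controls, 5 with H3.2 mRNA against the knockdown and 7 against the luciferase library. At 8-fold, they were 1 for the knockdown against untreated embryos, 2 for the knockdown against luciferase, 1 with H3.3 mRNA against the knockdown, 3 against the untreated library, and 1 with H3.2 mRNA against the luciferase library. The H3.3 sum in the knockdown against the untreated library, -2.99, lay just short of 8-fold. No paired analysis was possible because each group has 1 library.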
